A study of Homo sapiens with 4 samples.

Results

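The actomyosin and serum response factor (SRF) gene set holds 43 genes for actins, myosins, tropomyosins, calponins, filamins, actin-turnover proteins, focal adhesion proteins and SRF with its MRTF cofactors. Members were rows of the deposited count table whose gene symbol equals a listed name, 43 of 63241 rows, with 1 row per gene. All 43 had enough reads to be tested. They were measured in FT190, an established human line that the labels call ovarian epithelial and that is known as an immortalised line of fallopian tube secretory epithelium. Cells of both groups are labelled wild type. The 2 control libraries are of cells carrying PLKO, the control vector. The other 2 are of cells expressing an RNA hairpin (shRNA, labelled SMARCA4_sh1) that targets SMARCA4, which encodes an ATPase of SWI/SNF chromatin remodelling complexes. With 1 hairpin in 1 cell line, an effect of SMARCA4 loss and an effect of that hairpin on other transcripts cannot be told apart.

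The contractile unit of a non-muscle cell is built from actin filaments, bipolar non-muscle myosin II and tropomyosins, tied to the matrix through focal adhesions. Actin monomers bind the cofactors MRTFA and MRTFB in the cytoplasm, and when monomers are used up in filaments the cofactors enter the nucleus and join SRF. SRF binds a DNA element called the CArG box in many genes of this set, its own gene included. Epithelial cells mostly use the cytoplasmic isoforms of these proteins, while smooth muscle cells and myofibroblasts are marked by ACTA2, TAGLN and CNN1.

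The CArG box was searched in the RefSeq promoter windows (GRCh38.p14, from 250 bases before to 50 bases after each start site), because these genes are known through that element. The pattern is palindromic, so a single search covers both strands. At least 1 window was listed for 39 of the 43 genes, and 12 of the 39 (30.8%) had a CArG box in at least 1 of them. By window, 14 of 88 held the element (15.9%), beside 454 of 35116 windows of all genes (1.29%). Windows of a gene can overlap: the 14 hold 15 distinct boxes, and 1 FHL2 box lies in 2 of them. The stretches below come from 6 of these 12 genes and show where the element lies, 5′ to 3′ on the strand of the gene, with CArG boxes in capitals. They were chosen to show genes that fell (SRF, ACTG1, FLNA, ACTG2), 1 that did not pass the test (CNN2) and 1 that rose (FHL2) in the shRNA cells.

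SRF at chr6:43171209-43171268, plus strand, holds 2 boxes that begin 30 and 10 bases before the start site.
SRF: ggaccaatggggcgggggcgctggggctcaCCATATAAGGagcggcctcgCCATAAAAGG
ACTG2 at chr2:73892868-73892974, plus strand, holds 2 boxes that begin 110 and 73 bases before the start site.
ACTG2: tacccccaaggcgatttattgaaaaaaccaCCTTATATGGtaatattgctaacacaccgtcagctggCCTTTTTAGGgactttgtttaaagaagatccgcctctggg
ACTG1 at chr17:81512854-81512923, minus strand, and FLNA at chrX:154374689-154374758, minus strand, each hold a box that begins 94 bases before the start site.
ACTG1: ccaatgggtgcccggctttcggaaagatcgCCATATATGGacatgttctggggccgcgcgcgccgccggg
FLNA: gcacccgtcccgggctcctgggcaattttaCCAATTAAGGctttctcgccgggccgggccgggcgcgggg
CNN2 at chr19:1026489-1026558, plus strand, holds a box that begins 89 bases before the start site.
CNN2: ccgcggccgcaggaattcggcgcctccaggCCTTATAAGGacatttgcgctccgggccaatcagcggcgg
FHL2 at chr2:105399071-105399140, minus strand, holds a box that begins 59 bases before 1 of its start sites.
FHL2: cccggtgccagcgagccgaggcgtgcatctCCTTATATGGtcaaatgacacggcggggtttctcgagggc
The counted transcripts of SRF, ACTG2, FLNA and CNN2 begin at these start sites. Those of ACTG1 and FHL2 begin 52 and 173 bases upstream. The FHL2 box thus lies past the start of its counted transcript. In the box genes not shown, the start site lies further from that of the counted transcript. The distance was 1034 bases in TGFB1I1, 1778 in ACTN1 and 8901 in TPM4. It was 49582 in FHL1, 58814 in LPP and 263784 in MYLK.

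Total counts were between 27137414 and 33641343 per library. SMARCA4 was 4.74-fold lower under the hairpin (171 and 162 CPM against 34.0 and 36.3 CPM, where CPM is counts per 1e+06 counts of the scaled library). The labels do not say whether replicates were separate cultures, so p-values here reflect the scatter among 4 libraries, and that scatter may be technical only. The level of the whole gene set differed between the controls. Of the 43 genes, 38 were higher in control 1 than in control 2, by a median of 0.14 on the log2 scale, while 68.0% of all genes averaging 100 CPM or more were higher in control 1, by a median of 0.03. In the shRNA pair, 19 of 43 were higher in library 1. Results below are therefore also given without control 1 or control 2 where the call changes. A fit without 1 control takes its scatter from the shRNA pair alone. Its p-values and calls thus leave out the spread between controls. That spread was the larger, with a chi-square over its degrees of freedom of 6.33 against 1.88 in the shRNA pair. A fit without 1 shRNA library takes its scatter from the control pair alone. A call lost there can thus reflect the wider spread between controls.

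Contractile transcripts were mostly lower in the shRNA cells. By edgeR's quasi-likelihood test with adjustment over all genes tested, 30 of the 43 fell and 1, FHL2, rose, and 12 did not pass. Among all 18781 genes tested 15.8% fell and 13.8% rose. Genes in this set are abundant, and abundant genes are more often called: of 2403 genes averaging 100 CPM or more, 25.9% fell, against 22 of the 32 members at that level. The median log2 fold change (shRNA over control) was -0.26 in the set and -0.0045 over all genes. Both shRNA libraries lay below both controls in 36 of the 43 genes, where 33.5% of all genes did so. These are bulk libraries, in which fewer cells of a kind and less RNA per cell cannot be told apart.

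Most falls were small and a few were large. A fall of at least 2-fold was reached by 8 members, ACTG2, CNN1, AIF1L, LMOD1, TAGLN, ACTA2, MYL9 and FLNC, and by 1.95% of all genes tested. SRF and TPM2 came next, with falls of more than 1.5-fold. Together the 43 genes took 3.37% and 3.05% of all control counts against 2.63% and 2.64% of hairpin counts. The set's median was -0.22 without control 1 and -0.32 without control 2, so it lay below 0 against either control alone. The count of members that fell was 30 without control 1, 36 without control 2, 24 without shRNA library 1 and 26 without shRNA library 2.

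**Figure D1:**
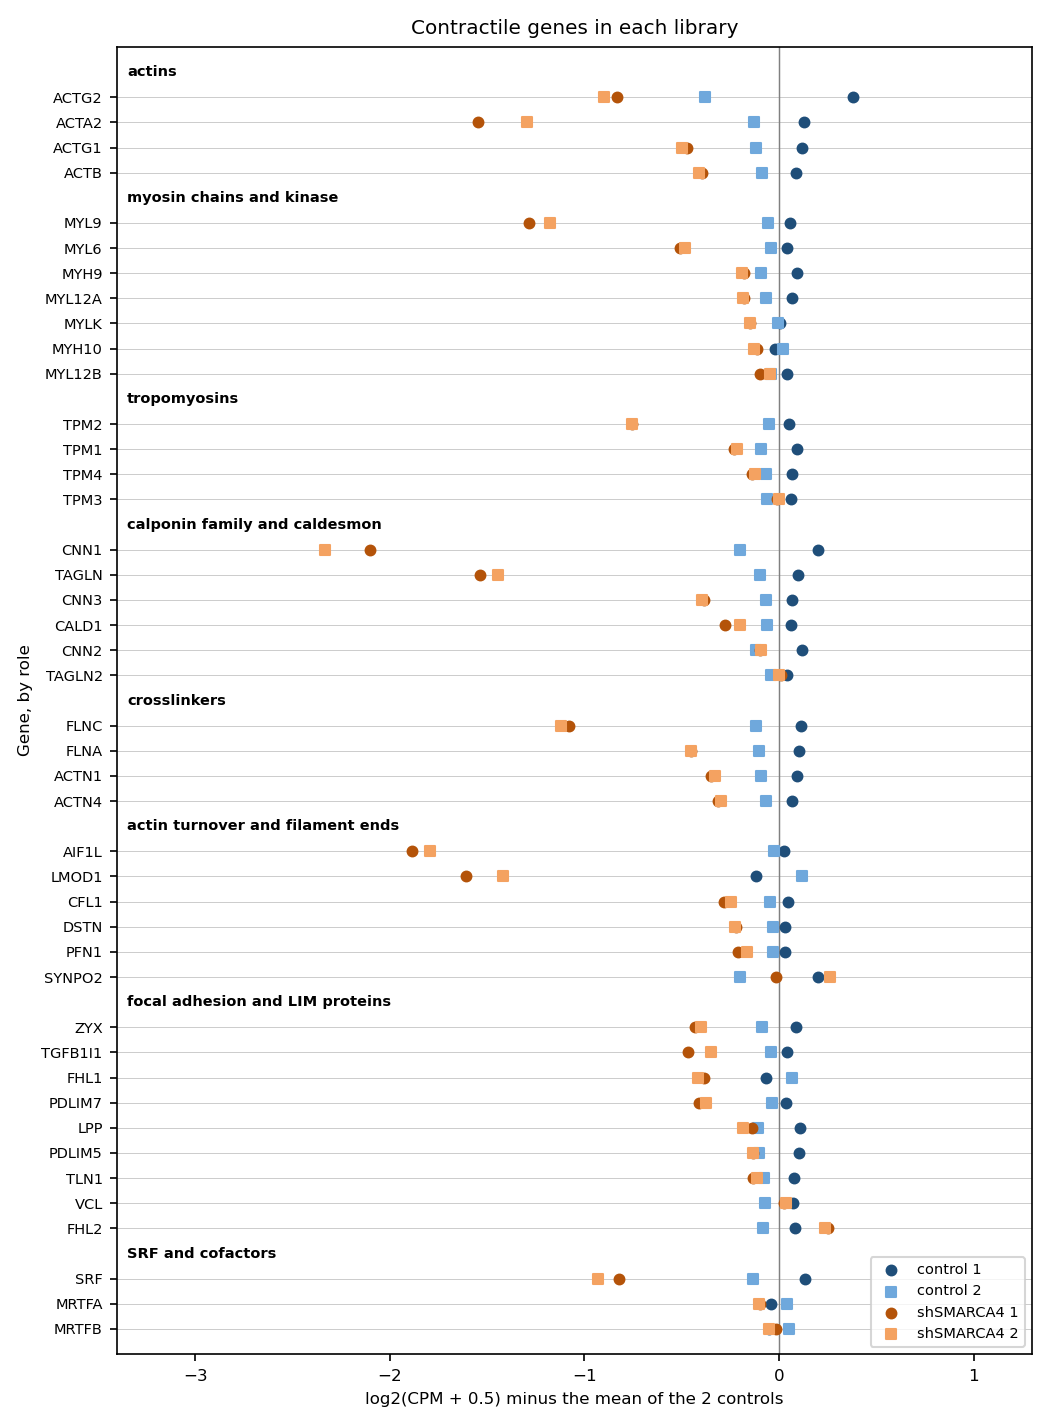
Each row is a gene, grouped by role, and each point is a library, placed at log2(CPM + 0.5) minus the mean of the 2 controls. The 8 genes with at least 2-fold falls stand apart on the left except ACTG2, whose low counts the added 0.5 CPM compresses, while FHL2 lies to the right of both controls.

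All 4 actins fell, by more in the muscle-type isoforms than in the cytoplasmic ones, a difference between genes that was not tested here or below. ACTB, the main cytoplasmic actin, stood at 7974 and 7051 CPM in control cells against 5691 and 5646 CPM in hairpin cells. Its change of -0.41 ± 0.055 (log2 fold change ± SE, 2 libraries per group) was a 1.32-fold fall, with an edgeR adjusted p of 7.21e-04. ACTG1, the other cytoplasmic actin, went the same way, with 4550.0 and 3863 CPM in control cells against 3018 and 2972 CPM in hairpin cells (-0.49 ± 0.066, edgeR adjusted p = 7.38e-04). In both genes control 1 was the highest library, and the 2 shRNA libraries lay below control 2. These are the most abundant transcripts of the set, at 3360.0 and 1885 CPM per kilobase of counted transcript in the controls, and together they took 1.22% and 1.08% of all counts there against 0.884% and 0.877% under the hairpin. Their coding sequences are nearly identical and have many pseudogene copies, so the division of reads between the actins is uncertain.

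ACTA2 (ENSG00000107796.13; chromosome 10, 88935125 to 88952773, minus strand, hg38), the smooth muscle alpha-actin, stood at 39.9 and 33.2 CPM in control cells against 12.2 and 14.5 CPM in hairpin cells. The groups were far apart: the fall was 2.74-fold (-1.46 ± 0.11, edgeR adjusted p = 3.29e-05). The counting used reads from both strands, and 30.1% of ACTA2's exon bases lie in exons of other genes in GENCODE 29, chiefly its antisense transcript ACTA2-AS1. Exon bases here and below are those of all transcripts of a gene in that release. Reads were counted over 1 transcript per gene, so these are not shares of the counted bases. ACTA2-AS1 had 13.5 and 10.9 CPM in control cells against 4.14 and 5.36 CPM in hairpin cells, also a fall (-1.36 ± 0.15), and reads of the pair cannot be separated. ACTG2, the gamma-actin of enteric smooth muscle, had 32 and 12 counts in control cells against 4 and 3 in hairpin cells, so it passed the filter on low counts through the controls alone. The summed counts gave a ratio of 5.48 (exact 95% interval 2.45 to 14.4, counting error only), and its call was lost without control 1 (edgeR adjusted p = 0.124) or when low-count genes were left in (edgeR adjusted p = 0.0882). ACTA2 made up 0.252% and 0.241% of the summed actin level per kilobase in the controls and 0.111% and 0.134% under the hairpin.

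Among myosin genes, the regulatory light chain MYL9 fell most. MYL9 (ENSG00000101335.10; chromosome 20, 36541519 to 36551447, plus strand), whose phosphorylation switches on myosin II in smooth muscle, stood at 344 and 317 CPM in control cells against 135 and 146 CPM in hairpin cells. That was a 2.35-fold fall (-1.23 ± 0.054, edgeR adjusted p = 3.04e-06) with no overlap of the groups. MYL6, the essential light chain and the most abundant myosin transcript per kilobase (1232 CPM per kilobase), had 899 and 847 CPM in control cells against 614 and 624 CPM in hairpin cells (-0.50 ± 0.042, edgeR adjusted p = 6.59e-05). Of its 4609 exon bases over all transcripts 13.9% are shared with other genes, mainly SMARCC2 on the opposite strand. The counted MYL6 transcript has 709 bases. MYL12A and MYL12B are neighbouring genes on chromosome 18 for the near-identical regulatory light chains of non-muscle cells, and reads may be split between them. MYL12A stood at 449.6 and 410.1 CPM in control cells against 379 and 378 CPM in hairpin cells (-0.18 ± 0.048), and MYL12B at 414 and 392 CPM in control cells against 376 and 391 CPM in hairpin cells (-0.071 ± 0.043, edgeR adjusted p = 0.251, not past the test).

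The heavy chains moved by little. MYH9, the main non-muscle myosin II heavy chain, had 2892 and 2536 CPM in control cells against 2395 and 2370.0 CPM in hairpin cells (-0.19 ± 0.057, edgeR adjusted p = 0.0355). MYH10, the heavy chain of the slower non-muscle myosin IIB, had 241 and 248 CPM in control cells against 226 and 223 CPM in hairpin cells (-0.12 ± 0.039, edgeR adjusted p = 0.0464). MYLK, the kinase that phosphorylates the regulatory light chains, stood at 188 and 187 CPM in control cells against 169 and 169 CPM in hairpin cells (-0.15 ± 0.038). Both shRNA libraries lay below both controls in all 7 myosin genes, as in 33.5% of all genes tested. Of the 7, 6 fell, where 15.8% of all genes tested did, but the smaller falls did not pass in every fit. The calls of MYL12A, MYH9, MYH10 and MYLK were lost without shRNA library 1 and without shRNA library 2. Those fits take their scatter from the control pair alone, where the spread was wider. Of the 13 alternatives MYL12B passed only without control 2 (-0.11), where the spread between controls drops out. With library totals as the scaling, MYH9, MYH10 and MYLK also missed the threshold (edgeR adjusted p = 0.0595, 0.199 and 0.0655). When low-count genes were left in, MYL12A, MYH9, MYH10 and MYLK all missed it (edgeR adjusted p = 0.103, 0.156, 0.152 and 0.0746). MYH10 and MYLK missed it in DESeq2 too (DESeq2 adjusted p = 0.176 and 0.0813), and MYH10 with RLE or upper-quartile scaling (edgeR adjusted p = 0.0571 and 0.0681), so the MYH10 call was lost in 7 of the 13 alternatives.

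Tropomyosins, which wrap along actin filaments and set which myosins can bind, separated by isoform gene. TPM2 (ENSG00000198467.16; chromosome 9, 35684251 to 35689900, minus strand) stood at 378 and 352 CPM in control cells against 216 and 216 CPM in hairpin cells. It fell 1.69-fold (-0.76 ± 0.045, edgeR adjusted p = 1.10e-05), and its share of the 4 tropomyosin genes per kilobase was 20.6% and 21.2% in the controls and 14.7% and 14.6% under the hairpin. TPM1, the most abundant per kilobase (417 CPM per kilobase), fell by less, with 1466 and 1287 CPM in control cells against 1169 and 1183 CPM in hairpin cells (-0.23 ± 0.057, edgeR adjusted p = 0.0163). Of the 12876 exon bases of all TPM1 transcripts 21.4% overlap other genes, while the counted transcript has 3299 bases. TPM4 (-0.13 ± 0.048, edgeR adjusted p = 0.0714) and TPM3 (-0.0046 ± 0.046, edgeR adjusted p = 0.955) did not pass. TPM4 had 1151 and 1049 CPM in control cells against 999.7 and 1010.0 CPM in hairpin cells, and its change was -0.197 without control 2. TPM3 had 818 and 753 CPM in control cells against 780.3 and 785 CPM in hairpin cells, with the shRNA libraries between the controls, and its sign turned positive without control 1 (0.061) or without shRNA library 1 (0.0080), and under upper-quartile scaling (0.011), library totals (0.045) or protein-coding genes alone (0.0014). Each gene makes several isoforms from alternative exons, and the table holds 1 value per gene, so isoforms could not be compared.

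The calponin family showed the widest range. CNN1 (ENSG00000130176.8; chromosome 19, 11538767 to 11550322, plus strand), the calponin of smooth muscle, stood at 19.1 and 14.4 CPM in control cells against 3.49 and 2.90 CPM in hairpin cells, a 5.24-fold fall (-2.39 ± 0.17, edgeR adjusted p = 2.48e-05). TAGLN (ENSG00000149591.17; chromosome 11, 117199370 to 117207464, plus strand), also called SM22-alpha, a calponin-related protein that bundles actin filaments, had 337 and 295 CPM in control cells against 108 and 116 CPM in hairpin cells. It fell 2.82-fold (-1.50 ± 0.065, edgeR adjusted p = 3.04e-06), and its share of the 5 calponin family genes per kilobase went from 7.29% and 6.95% to 2.83% and 3.03%. Of TAGLN's exon bases 11.4% are shared with the oppositely transcribed gene PCSK7, a proprotein convertase, which itself had 85.4 and 71.4 CPM in control cells against 33.8 and 35.5 CPM in hairpin cells (-1.18 ± 0.082, edgeR adjusted p = 2.46e-05). How far the PCSK7 value holds TAGLN reads, or the reverse, was not tested.

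The family's broadly expressed genes changed less. CNN3, the acidic calponin of many non-muscle cells, had 814 and 743 CPM in control cells against 595 and 590.2 CPM in hairpin cells (-0.39 ± 0.048, edgeR adjusted p = 4.40e-04), with both shRNA libraries below both controls. CNN2, the calponin of non-muscle cells that holds a CArG box in the stretch above, stood at 264 and 224 CPM in control cells against 227 and 228 CPM in hairpin cells (-0.100 ± 0.068, edgeR adjusted p = 0.309). CNN2 depended on which control was kept: its change was 0.029 without control 1 and -0.21 without control 2. TAGLN2, the most abundant of the family per kilobase (572 CPM per kilobase), had 804 and 760.4 CPM in control cells against 788 and 782 CPM in hairpin cells. It stood at 0.0057 ± 0.041 (edgeR adjusted p = 0.935), with overlapping groups and a negative sign without control 2 (-0.034). CALD1, caldesmon, which binds actin and tropomyosin and restrains myosin, had 832 and 762 CPM in control cells against 657 and 694 CPM in hairpin cells (-0.24 ± 0.051). Its call was lost without shRNA library 1, in a fit that takes its scatter from the control pair alone.

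**Figure D2:**
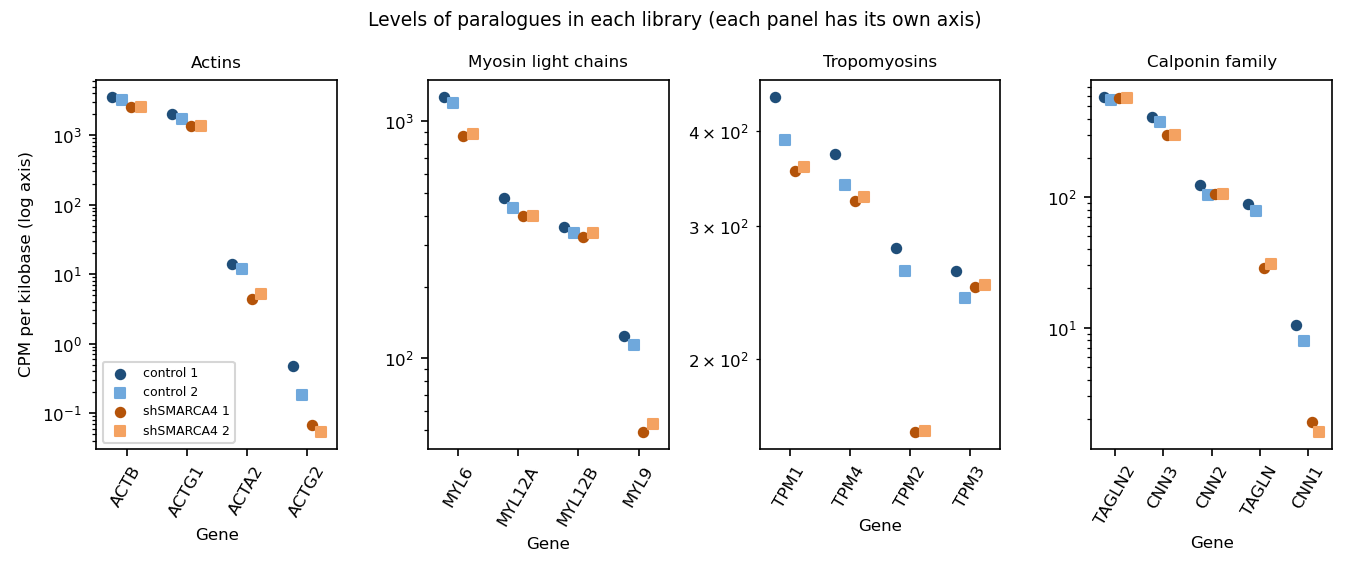
Each point is a library, placed at the level of a gene in CPM per kilobase on a log axis, for the actins, myosin light chains, tropomyosins and calponin family genes. The wide gaps between controls and shRNA libraries are in ACTA2, ACTG2, MYL9, TPM2, TAGLN and CNN1, and the points of TAGLN2, CNN2 and TPM3 lie together.

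All 4 crosslinkers fell, where 15.8% of all genes tested did. FLNC (ENSG00000128591.16; chromosome 7, 128830406 to 128859272, plus strand), the filamin of striated muscle, stood at 438 and 373 CPM in control cells against 191 and 186 CPM in hairpin cells, a 2.15-fold fall (-1.11 ± 0.068, edgeR adjusted p = 1.37e-05). FLNA, the ubiquitous filamin that joins actin filaments into networks, had 3051 and 2652 CPM in control cells against 2078 and 2076 CPM in hairpin cells (-0.46 ± 0.060, edgeR adjusted p = 6.07e-04). In both filamins the 2 shRNA libraries differed little from each other, and control 1 was higher than control 2. The alpha-actinins, which bundle filaments in stress fibres, followed with smaller changes: ACTN1 had 1247 and 1094 CPM in control cells against 916 and 930.3 CPM in hairpin cells (-0.34 ± 0.058). ACTN4 had 670.1 and 610.1 CPM in control cells against 514 and 519.5 CPM in hairpin cells (-0.31 ± 0.049), with 14.2% of its exon bases in the oppositely transcribed gene CAPN12. Their edgeR adjusted p-values were 0.00225 and 0.00163.

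Genes for filament ends and turnover held 2 of the strongest falls and 3 small ones. AIF1L (ENSG00000126878.13; chromosome 9, 131096476 to 131123152, plus strand), an actin-bundling calcium-binding protein related to AIF1, stood at 24.9 and 24.0 CPM in control cells against 6.25 and 6.70 CPM in hairpin cells. The 2 libraries of each group were close, and the fall was 3.77-fold (-1.92 ± 0.085, edgeR adjusted p = 3.04e-06). LMOD1 (ENSG00000163431.14; chromosome 1, 201896456 to 201946548, minus strand), leiomodin, the actin nucleator of smooth muscle, was scarce, with 4.39 and 5.27 CPM in control cells against 1.24 and 1.49 CPM in hairpin cells, resting on 144 and 170 counts against 36 and 41. It fell 3.54-fold (-1.82 ± 0.18, edgeR adjusted p = 1.60e-04), and unlike most members it was higher in control 2 than in control 1.

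The abundant turnover factors fell by about 1.2-fold or less. CFL1, cofilin, which severs filaments, had 749.7 and 705 CPM in control cells against 597 and 613 CPM in hairpin cells (-0.27 ± 0.043), and 19.0% of its exon bases overlap other genes, chiefly MUS81. DSTN, destrin, a relative of cofilin, had 383 and 368 CPM in control cells against 322 and 320.2 CPM in hairpin cells (-0.22 ± 0.040). PFN1, profilin, which loads actin monomers onto growing ends, had 685 and 656 CPM in control cells against 579.9 and 597 CPM in hairpin cells (-0.19 ± 0.041). The PFN1 call was lost without shRNA library 1, in a fit that takes its scatter from the control pair alone. Both shRNA libraries lay below both controls in these 3 genes, as in 33.5% of all genes tested. Their edgeR adjusted p-values lay between 0.00188 and 0.00800. SYNPO2, an actin-bundling protein of muscle Z-discs, had the lowest control level of the set per kilobase (0.106 CPM per kilobase). It had 63 and 43 counts in control cells against 46 and 56 under the hairpin. It stood at 0.15 ± 0.24 (edgeR adjusted p = 0.693), with overlapping groups, and its sign turned negative without control 2 (-0.091) or without shRNA library 2 (-0.037).

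Of the 9 focal adhesion and LIM-domain genes, 4 fell (44.4%), FHL2 rose (11.1%) and 4 did not pass. Among all genes tested 15.8% fell and 13.8% rose. ZYX, zyxin, which senses tension on stress fibres, had 313 and 277 CPM in control cells against 218 and 223 CPM in hairpin cells (-0.42 ± 0.057, edgeR adjusted p = 7.37e-04). PDLIM7, an adaptor of the PDZ and LIM family, had 139 and 132 CPM in control cells against 102 and 104 CPM in hairpin cells (-0.40 ± 0.045, edgeR adjusted p = 2.98e-04). TGFB1I1, also called Hic-5, a paxillin relative at adhesions, had 54.2 and 51.1 CPM in control cells against 37.9 and 41.1 CPM in hairpin cells (-0.41 ± 0.059, edgeR adjusted p = 9.35e-04). Both shRNA libraries lay below both controls in all 3, as in 33.5% of all genes tested. FHL1 and FHL2, which share the layout of LIM domains and bind to many partners at adhesions and in the nucleus, went opposite ways. FHL1 stood at 93.4 and 103 CPM in control cells against 75.0 and 73.2 CPM in hairpin cells (-0.40 ± 0.054, edgeR adjusted p = 6.84e-04). FHL2 stood at 96.7 and 86.5 CPM in control cells against 109 and 108 CPM in hairpin cells (0.24 ± 0.056, edgeR adjusted p = 0.0106), and both shRNA libraries were above both controls. The FHL2 call was lost with no filter on low counts (edgeR adjusted p = 0.0718) and held in the other 12 alternatives.

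VCL and TLN1, whose proteins link integrins to actin, and LPP and PDLIM5 showed no change past the test. VCL, vinculin, had 855 and 774 CPM in control cells against 829.9 and 834 CPM in hairpin cells (0.030 ± 0.050, edgeR adjusted p = 0.699), with 11.1% of its exon bases in the opposite gene AP3M1. TLN1, talin, which activates integrins, had 346 and 312 CPM in control cells against 299 and 304 CPM in hairpin cells (-0.13 ± 0.052, edgeR adjusted p = 0.0985). LPP, a zyxin relative, had 160.3 and 138 CPM in control cells against 135 and 131 CPM in hairpin cells (-0.17 ± 0.066, edgeR adjusted p = 0.0868). PDLIM5, a PDZ and LIM adaptor, had 213 and 184 CPM in control cells against 180.4 and 181 CPM in hairpin cells (-0.14 ± 0.062, edgeR adjusted p = 0.132). In these 4 genes control 1 was the higher control, and the result turned on it. Without control 2 the changes of TLN1, LPP and PDLIM5 were -0.20, -0.27 and -0.24, in a fit that leaves out the spread between controls. VCL stood at 0.11 without control 1 and turned to -0.041 without control 2.

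SRF itself fell and its cofactors did not pass. SRF (ENSG00000112658.8; chromosome 6, 43171269 to 43181506, plus strand) stood at 92.1 and 76.5 CPM in control cells against 47.2 and 43.8 CPM in hairpin cells, a 1.85-fold fall (-0.89 ± 0.084, edgeR adjusted p = 1.11e-04) in which each shRNA library was below each control. MRTFA had 48.0 and 50.8 CPM in control cells against 46.0 and 45.9 CPM in hairpin cells (-0.10 ± 0.051, edgeR adjusted p = 0.163), and its change was -0.14 without control 1. MRTFB had 44.7 and 47.9 CPM in control cells against 45.8 and 44.6 CPM in hairpin cells (-0.036 ± 0.054, edgeR adjusted p = 0.669), with overlapping groups and a positive sign without control 2 (0.015) or with library totals as the scaling (0.013). The activity of MRTF proteins is set largely by where they are in the cell, which transcript levels do not measure.

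**Figure D3:**
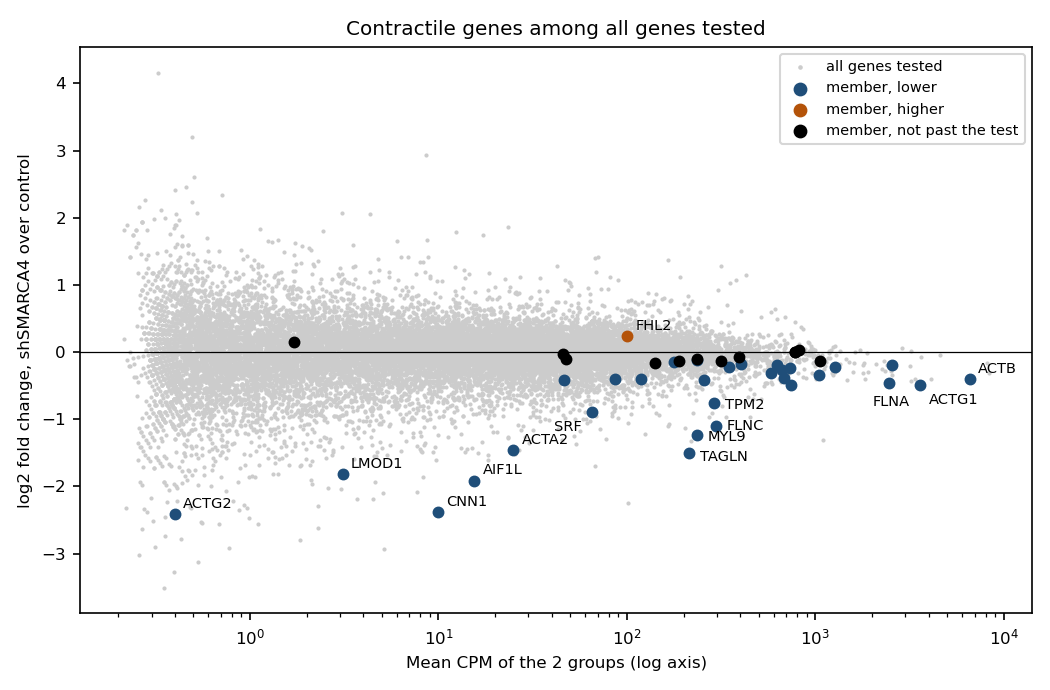
Each grey point is 1 of 18781 genes tested, placed by the mean CPM of the 2 groups (log axis) and its log2 fold change, shRNA over control. The 30 members that fell are blue and reach from the scarce ACTG2 to ACTB, the most abundant member, the 12 that did not pass are black and lie near 0, and FHL2 is orange.

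Among the 39 members with a RefSeq window, those with and without a CArG box fell in equal shares. Of the 12 genes with the element in a RefSeq window, 8 fell, 1 rose (FHL2) and 3 did not pass (CNN2, TPM4 and LPP), with a median log2 fold change of -0.37. Of the 27 genes whose windows lack it, 18 fell and 9 did not pass, with a median of -0.22. The 2 shares that fell were both 66.7%. The 4 members with no listed window, TAGLN, MYL9, AIF1L and ACTB, are in neither share, and all 4 fell (median -1.36), the first 3 of them at least 2-fold. Of the other falls of at least 2-fold, CNN1, LMOD1, ACTA2 and FLNC had no box in their windows and the low-count ACTG2 had one. No match says only that the exact 10 bases are not in these 300 bases, since elements further away or with a mismatch were not searched. A match counted at any RefSeq start site of the gene, also at 1 far from the counted transcript (263784 bases in MYLK). Over the whole table, 183 of 11877 tested genes with a window held the box. Of these, 45 fell (24.6%) and 26 rose, with a median of -0.052, beside 18.2% lower and a median of -0.0021 in the 11694 genes without it.

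**Figure D4:**
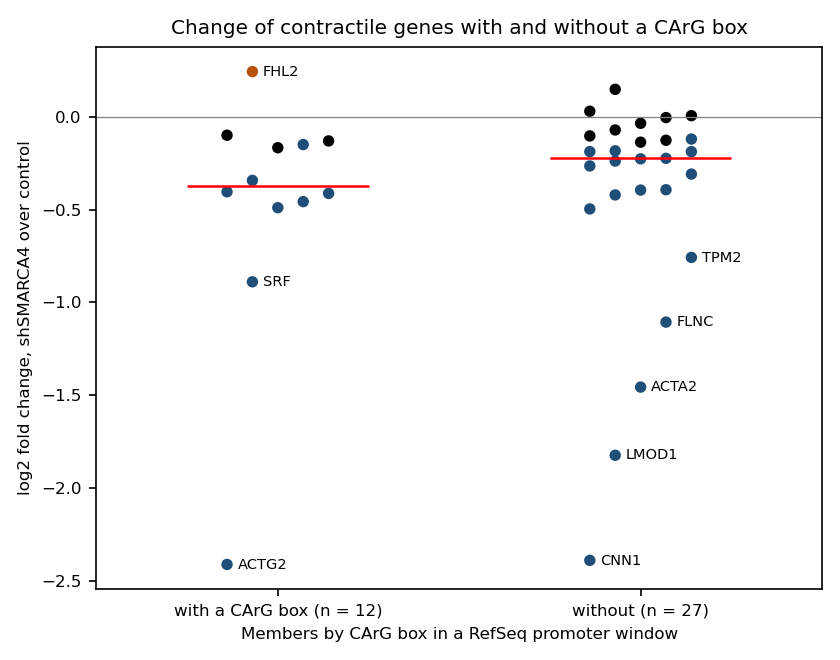
Each point is a member with at least 1 RefSeq promoter window, placed at its log2 fold change, shRNA over control, and split by whether a window holds a CArG box (12 genes) or not (27 genes). Blue points fell, orange rose and black did not pass the test, and the red lines are medians (-0.37 and -0.22). Of the 5 falls of at least 2-fold plotted, 4 are in genes without a box, and the other is the low-count ACTG2.

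Genes around the set were read from other lists. Branched actin assembly, by the Arp2/3 complex and its activators, had 11 of 18 genes lower (61.1%) and 1 higher (median -0.20), where 15.8% of all genes tested fell and 13.8% rose. Of all genes averaging 100 CPM or more, 25.9% fell and 19.4% rose. Neither this list nor the next was matched to other genes by level. NCKAP1 (-0.52 ± 0.038), a subunit of the WAVE complex, WASL (-0.59 ± 0.050) and WASF2 (-0.30 ± 0.038), 2 activators of Arp2/3, and ARPC5 (-0.32 ± 0.041), a subunit of the complex, led by adjusted p. WASF3 rose (0.49 ± 0.079), and without control 2 there were 3 rises. The 11 lower genes were 7 with no filter on low counts, without shRNA library 1 or without shRNA library 2. Among 46 other actin-binding, contractile and adhesion genes, 42 were tested, 20 fell (47.6%) and 4 rose (9.52%), with a median of -0.16. PALLD (-0.67 ± 0.039), an actin scaffold of stress fibres, NEXN (-0.92 ± 0.076), a muscle filament protein, TNS1 (-0.54 ± 0.051), a tensin of adhesions, and MYL6B (-0.47 ± 0.045), an essential light chain, led by adjusted p. The counted spans of MYL6B and MYL6 overlap on the same strand, and the counted MYL6B transcript has only 216 bases. How far the MYL6B value holds MYL6 reads was not tested. The 20 were 11 with no filter on low counts and 13 without shRNA library 1, and the 4 rises were 7 without control 1, 2 without shRNA library 2 and 1 with no filter.

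Of 12 other SRF partners and rapid SRF targets, 2 fell (16.7%) and 1 rose (8.33%), shares near those of all genes tested (15.8% and 13.8%), with a median of 0.20. The partners include the ternary complex factors ELK1, ELK3 and ELK4, which answer to ERK signalling and drive rapid targets such as FOS and EGR1. ELK3, a ternary complex factor with repressive activity, fell (-0.42 ± 0.073, edgeR adjusted p = 0.00286), ELK1 rose (0.20 ± 0.051, edgeR adjusted p = 0.0153), and ELK4 stood at 0.0030 ± 0.043 (edgeR adjusted p = 0.969). JUNB fell (-0.37 ± 0.058). EGR1 stood at 0.19 ± 0.067 and FOS at 0.21 ± 0.19, neither past the test (edgeR adjusted p = 0.0561 and 0.446). MYOCD, the muscle SRF cofactor, was nearly silent, with 0.671 and 0.496 CPM in control cells against 0.794 and 0.543 CPM in hairpin cells. The single rise was lost with DESeq2, with no filter and without shRNA library 2, and became 2 without any 1 of the other 3 libraries.

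Markers of cell types were read beside these falls. Smooth muscle markers beyond the set were low and summed to 57.0 and 46.7 CPM without the hairpin against 31.4 and 31.2 CPM with it, of which SMTN, smoothelin, made up most (52.5 and 42.7 CPM in control cells against 27.7 and 26.7 CPM in hairpin cells). MYH11, the smooth muscle myosin heavy chain, had 3.32 and 3.10 CPM in control cells against 2.90 and 3.84 CPM in hairpin cells, and DES, desmin, had 17 and 13 counts against 0 and 3 (ratio 8.72, exact 95% interval 2.71 to 44.6, counting error only), so it passed the filter through the controls alone. These markers held 2 lower calls, SMTN and DES, and 1 with DESeq2, with no filter, with the 1 CPM filter or without shRNA library 1. Fibroblast markers summed to 2454 and 2509 CPM against 1852 and 1987, of which COL1A1 made up most (1968 and 2004 CPM against 1540 and 1663). LUM, PDGFRB, COL1A1 and THY1 were lower, while PDGFRA and FAP, with control means of 1.57 and 0.463 CPM, did not pass. Thus 4 of 6 tested fibroblast markers fell, where 15.8% of all genes tested did. Among the 4 smooth muscle markers SMTN fell, and MYH11 and MYOCD did not pass. The fall of DES is not set beside that share, because DES passed the filter through the controls alone. DCN (0 and 2 counts in the controls, 0 in each shRNA library) and COL3A1 were below the filter. Secretory epithelial markers summed to 1848 and 1743 CPM against 1258 and 1261, with KRT7, KRT8 and KRT18 lower, WT1 higher and PAX8 at 0.11 ± 0.047 (edgeR adjusted p = 0.103). EPCAM and MUC16 were under 1 CPM and OVGP1 was below the filter, so these markers were nearly absent. The other markers of this list were expressed. Their control means were 596 CPM for KRT7, 760 for KRT8, 367 for KRT18, 58.6 for PAX8 and 14.3 for WT1. Endothelial markers summed to less than 1 CPM in each library and immune markers to between 22.7 and 25.1 CPM. CD68 made up most of the immune sum (21.7 and 24.3 CPM in control cells against 22.6 and 24.3 CPM in hairpin cells). The part of these shifts in the contractile result was not tested.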

How the data were processed

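Expression was measured by RNA-seq of total RNA, with SMARTer mRNA libraries per the labels' protocols, in 2 control and 2 shRNA libraries. The authors deposited raw counts per gene, which per the file headers came from HOMER's analyzeRepeats over exons of GENCODE 45 on hg38, with both strands counted, 1 transcript kept per gene and no normalization. STAR 2.6.1c aligned the reads, per the submitters' processing notes. Transcript lengths, the other unit used, were deposited in the same table. Groups and replicate numbers came from the sample titles.

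Genes passing filterByExpr (count minimum 10), 18781 of 63241, were scaled with TMM factors (trimmed mean of M) and tested with edgeR 4.0.16 in R 4.3.3 (quasi-likelihood, two-sided, Benjamini-Hochberg over all genes tested, threshold 0.05). The SE is the absolute log2 fold change over the square root of F. CPM, and CPM per kilobase of the counted transcript, were computed here from the scaled counts. Values named in the text are of all 43 members and, from each other list, up to 4 called genes with the smallest adjusted p, plus fixed SRF partner genes. One further list is not reported here. Further genes were named after their values were seen. Members and lists were chosen with earlier results of these data known. Replicate counts varied beyond counting error (chi-square over its degrees of freedom, 6.33 and 1.88). With 2 against 2 libraries an exact permutation p cannot go below 0.33, so none was run. Alternatives were other scalings and filters, DESeq2 1.42.0, limma-voom 3.58.1, protein-coding genes alone, a replicate block and each library left out.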

Additional observations from a re-analysis of the deposited data

How the results depend on the processing

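Of the 30 members that fell, 22 were lower and past the threshold in each of the 13 alternatives, and 8 lost the call in at least 1. Of the 12 not called, 8 were called in at least 1 alternative. The members that fell numbered between 24 and 36 when each library was left out in turn, and those that rose 1 to 2, the second being VCL without control 1. With no filter on low counts 24 members fell and 0 rose by edgeR, the FHL2 call being lost, while DESeq2 and limma-voom each called 1 higher. DESeq2 called 27 members lower and gave no adjusted p for ACTG2. Over all genes, 1403 rose and 1784 fell with no filter, 1625 and 1930 with DESeq2. When single libraries were left out, 1724 to 3618 genes rose and 2077 to 3828 fell. Genes that rose made up 46.6% of calls, and 59.5% with library totals. The causes were not tested. Signs turned in 6 uncalled members: TPM3 with upper-quartile factors (0.011), library totals (0.045) and protein-coding genes alone (0.0014), MRTFB with library totals (0.013), and, over left-out libraries, TPM3 (-0.064 to 0.061), CNN2 (-0.21 to 0.029), TAGLN2 (-0.034 to 0.051), SYNPO2 (-0.091 to 0.44), VCL (-0.041 to 0.11) and MRTFB (-0.081 to 0.015). TPM1 missed the threshold with no filter (edgeR adjusted p = 0.0922). Among counts of the other lists, 204 of 234 stayed within 1.5 times.

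Replicate numbers in the titles gave 2 pairs, and no label says that a number marks a shared culture or day. The difference between replicates 1 and 2 correlated between the groups with r = 0.27 across 11998 genes, which are not independent. With the replicate block, 33 members fell and 1 rose, and 3562 genes fell and 3187 rose. TPM4, TLN1 and LPP were the 3 gained, and the 30 lower calls without the block all stayed.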

Other observations

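Levels of the members spanned a wide range. In the controls the highest per kilobase after the cytoplasmic actins and MYL6 were PFN1 (836 CPM per kilobase), TAGLN2 (572) and CFL1 (483), and the lowest were LMOD1 (1.23), ACTG2 (0.330) and SYNPO2 (0.106). The 32 members with a mean of at least 100 CPM had a median log2 fold change of -0.22 and 22 fell, where 25.9% of all genes at that level did. The 11 below that level had a median of -0.89 and 8 fell, ACTG2 among them, which passed the filter through the controls alone. Among all genes tested, at any level, 15.8% fell. MYH9 made up 94.4% and 93.5% of the summed MYH9 and MYH10 level per kilobase in the controls and 93.7% in each shRNA library, so the ratio of the non-muscle heavy chain transcripts under the hairpin lay between the controls.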
